A study of Mus musculus with 6 samples.

Results

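Liver RNA of pregnant mice fed a high-fructose diet (HFrD) was examined here for 10 genes that encode histone chaperones or their partners: Hirip3, Hira, Ubn1, Cabin1, Asf1a, Asf1b, Chaf1a, Chaf1b, Nasp and Daxx. The members were taken by symbol from the 56691 genes of the deposited table, and all 10 were found. The set was built around Hirip3, which was picked because its reads were about 3-fold higher in KPF without overlap of the groups, so the Hirip3 values are given as a description and carry no test. Of the 10 members, 7 had a mean FPKM (reads scaled by exon length and by the library's total) of at least 1, the minimum set for the test, and 3 did not.

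The study asked what ChREBP, the carbohydrate response element binding protein encoded by Mlxipl, does in the liver of dams under HFrD. KPF were 3 hChrebp KO dams (hepatocyte-specific Chrebp knockout, floxed alleles with an Alb-Cre driver; replicates 1, 2 and 3) and WPF were 3 dams (replicates 2, 3 and 4) whose genotype is WT in the labels and Chrebp flox/flox without Cre in the study's methods. Both groups were on the C57BL/6J background, pregnant, and fed HFrD from mating to late pregnancy, so all 6 libraries share the diet and the pregnancy. Albumin drives Cre in hepatocytes, and the other liver cells of KPF keep the gene. The ages of the dams are not given in the sources used here.

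Histone chaperones escort histones that are not in nucleosomes and hand them to DNA. The HIRA complex (HIRA, UBN1 and CABIN1, fed by ASF1A) deposits the replacement histone H3.3 with H4 outside of DNA replication, whereas CAF-1 (the large subunit CHAF1A and the middle subunit CHAF1B), fed mainly by ASF1B in dividing cells, deposits the replicative H3 behind the fork. NASP guards the soluble pool of H3 and H4, DAXX places H3.3 in heterochromatin together with ATRX, and HIRIP3, first found as a binding partner of HIRA, carries H2A and H2B. Most hepatocytes of an adult liver do not divide, and in such cells replacement by the HIRA and DAXX routes is the main way by which new H3 enters chromatin.

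The stretches in front of Hirip3 and Hira are shown because these members were the only ones whose groups did not overlap, Hirip3 by the choice of the set; among all tested genes the groups did not overlap in 15.7%, in either direction. Both were read from RefSeq promoters on build GRCm38, which is not the build of the deposited table, and both run 5′ to 3′ on the plus strand, the strand of both genes. The Hirip3 stretch, chr7:126861870-126861971, is 102 bases long and ends at the base before the first base of Hirip3. It separates that base from most starts of Ino80e, a gene on the other strand: in GENCODE M21, 13 of 15 Ino80e transcripts started before the start of Hirip3 and 2 started past it. The Hira stretch, chr16:18876500-18876749, holds the 250 bases before the gene. Capitals mark each GC box, GGGCGG read on either strand, and where both matches of the first stretch overlap they form 1 run.
Hirip3: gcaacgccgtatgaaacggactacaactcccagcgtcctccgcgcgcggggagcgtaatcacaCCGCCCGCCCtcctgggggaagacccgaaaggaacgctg
Hira: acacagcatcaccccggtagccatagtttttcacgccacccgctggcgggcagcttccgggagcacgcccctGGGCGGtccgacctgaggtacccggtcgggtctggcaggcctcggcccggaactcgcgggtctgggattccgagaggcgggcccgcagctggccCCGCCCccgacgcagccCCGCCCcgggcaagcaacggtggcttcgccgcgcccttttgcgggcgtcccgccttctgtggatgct
G and C made up 65.7% of the bases of the Hirip3 stretch and 72.4% of the Hira stretch.

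The 10 promoters (250 bases before and 50 after the start, RefSeq, GRCm38.p6; all 10 matched) shared GC boxes more than any other of the 7 motifs searched on both strands. A GC box was present in 9 of 10, all but Nasp, against 35.7% of all 32851 promoters. The CCAAT box, CCAAT, was present in 7 of 10 (Ubn1, Cabin1, Asf1a, Asf1b, Chaf1a, Nasp and Daxx) against 37.4%. The letters CCGGAAGT, read by ETS factors, occurred in Hirip3, outside the printed stretch, and in Daxx, against 3.89% of all promoters. The letters GGCGGGAA, read by E2F factors, occurred only in Chaf1a, against 2.19%. An E-box, CACGTG, was present in Ubn1 and Chaf1a against 7.15%. No member held the consensus carbohydrate response element, which 0.365% of all promoters held, or the palindromic consensus of NRF1 (0.971%). The carbohydrate response element can contain an E-box, and the E2F letters can overlap a GC box. These are matches of letters in a short window, and no binding was measured.

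Between 10694496 and 14496630 reads were counted in a library, with the KPF libraries all smaller than the WPF libraries. Mitochondrial genes took between 33.2% and 35.0% of the reads in KPF and between 18.7% and 29.1% in WPF. The groups were compared on the counts with the quasi-likelihood test of edgeR, p values were adjusted by Benjamini-Hochberg over 10866 genes, and values per library are TMM-normalized CPM, reads relative to the size of the library. A gene was called when its unadjusted p was under 0.05 and the groups differed 1.5-fold or more. By this rule, 634 genes (5.83%) were higher and 432 (3.98%) lower in KPF, a split that became 371 and 716 when the libraries were scaled by their totals. No gene reached an adjusted p under 0.05 in edgeR, where 1176 genes had an unadjusted p under 0.05 and the smallest adjusted p was 0.397; DESeq2 called 156 genes at that adjusted threshold. With 3 dams against 3, an exact two-sided permutation test cannot go below p = 0.1. Mlxipl, the targeted gene, had 182, 709 and 860 CPM in KPF against 974, 1277 and 891 CPM in WPF, and since these counts cover the whole gene they do not check the deleted exon.

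Hirip3 was the member with the largest difference, and Hira was the only one of the 6 other tested members that passed the call rule, in the opposite direction. Ubn1, Cabin1, Asf1a, Nasp and Daxx did not pass it. The 6 had a median log2 fold change of 0.12, 4 positive and 2 negative, beside 0.02 over all 10866 tested genes. One call in 6 stands beside 9.81% of all tested genes called in either direction.

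**Figure D1:**
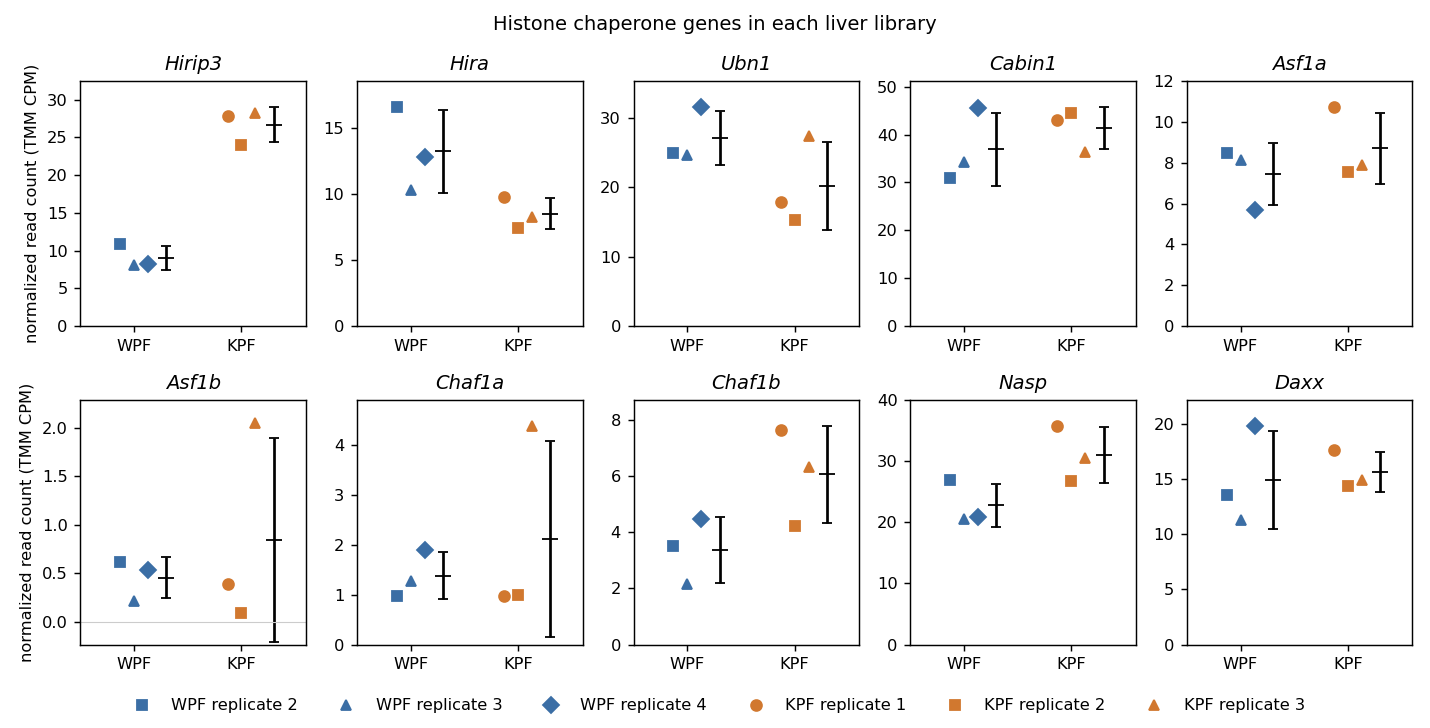
Normalized read counts (TMM CPM, linear axes that differ between panels) of the 10 genes in each library, WPF in blue and KPF in orange, with the marker shape giving the replicate number and the black bar the group mean ± SD (n = 3). The 3 KPF libraries of Hirip3 lie between 24.0 and 28.2 and the 3 WPF libraries between 8.05 and 10.9, while Asf1b and Chaf1a owe their KPF spread to replicate 3.

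Hirip3 (ENSMUSG00000042606, chr7:126461144-126464549 on GRCm39, plus strand) was counted with 288, 268 and 290 reads in KPF replicates 1, 2 and 3, and with 124, 113 and 139 reads in WPF replicates 2, 3 and 4. The normalized values were 27.8, 24.0 and 28.2 CPM in KPF and 10.9, 8.05 and 8.25 CPM in WPF. The lowest KPF library thus lay above 2-fold the highest WPF library. The means were 26.7 ± 2.32 CPM and 9.05 ± 1.57 CPM (SD, n = 3 each), which is 2.95-fold or 1.56 on the log2 scale (standard error 0.21). The log2 fold change ranged from 1.48 to 1.71 when each library was left out, and its sign follows from groups that do not overlap. Among all tested genes, 7.55% had every KPF library above every WPF library, and nothing is read from that share for Hirip3, which was chosen by it.

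Hira encodes the subunit that gives the complex its name and holds it together. Its reads (ENSMUSG00000022702, chr16:18695787-18789059 on GRCm39, plus strand) were 101, 83 and 85 in KPF and 189, 145 and 216 in WPF, or 9.75, 7.44 and 8.28 CPM against 16.6, 10.3 and 12.8 CPM. All KPF libraries lay below the WPF libraries, as in 8.15% of all tested genes, but the gap between KPF replicate 1 and WPF replicate 3 was small. Hira was called lower in KPF, 1.56-fold, with means of 8.49 ± 1.17 CPM and 13.2 ± 3.13 CPM (log2 fold change -0.64, standard error 0.26, p = 0.0393, adjusted p = 0.450 from edgeR; exact two-sided permutation test p = 0.1, the smallest it can give). Without any 1 library the log2 fold change lay between -0.79 and -0.45, a sign that follows from groups that do not overlap. The call was lost without KPF replicate 2 (-0.56), KPF replicate 3 (-0.62), WPF replicate 2 (-0.45) or WPF replicate 4 (-0.67).

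The other subunits of the complex did not pass the test. Ubn1, the ubinuclein that contacts H3.3 directly (ENSMUSG00000039473), was counted at 17.9, 15.2 and 27.4 CPM in KPF and 25.0, 24.7 and 31.5 CPM in WPF. KPF replicate 3 fell among the WPF libraries and the other two KPF libraries fell below all of them. The log2 fold change was -0.43 (standard error 0.26, edgeR p = 0.144, adjusted p = 0.576; exact p = 0.3), and without KPF replicate 3 it was -0.71 with edgeR p = 0.0175, past the call rule. Cabin1, the large calcineurin-binding subunit (ENSMUSG00000020196), was counted at 43.1, 44.6 and 36.3 CPM in KPF and 30.9, 34.2 and 45.6 CPM in WPF. The groups overlapped over most of their range, and the log2 fold change was 0.16 (standard error 0.22, edgeR p = 0.485, adjusted p = 0.806; exact p = 0.4). Asf1a, which passes H3.3 and H4 on to HIRA (ENSMUSG00000019857), was counted at 10.7, 7.53 and 7.89 CPM in KPF and 8.49, 8.12 and 5.70 CPM in WPF. Its log2 fold change was 0.23 (standard error 0.28, edgeR p = 0.435, adjusted p = 0.779; exact p = 0.6). Mcm9 lies over the whole of Asf1a on the other strand with 42 to 79 reads a library, and as the strand setting of the counting is not given in the sources used here, reads of the pair may not be told apart.

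Taken per length and within each library, which needs no scaling between libraries, Hira made up 15.4%, 13.6% and 13.6% of the summed FPKM of Hira, Ubn1, Cabin1 and Asf1a in KPF and 25.2%, 17.1% and 18.4% in WPF. This share is built from the Hira reads given above, so it partly restates them and is no separate evidence. It was not a planned measure. The KPF shares were all below the WPF shares, so leaving out a library could not change the sign of the difference in means. The means were 14.2 ± 1.03% and 20.3 ± 4.34% (SD, n = 3 each; exact two-sided permutation test p = 0.1), a difference of -6.09 percentage points that ranged from -7.65 to -3.61 when each library was left out. The shares of Ubn1 (25.3% and 31.1%, exact p = 0.3), Cabin1 (35.7% and 28.9%, exact p = 0.2) and Asf1a (24.8% and 19.7%, exact p = 0.2) overlapped between the groups. The summed FPKM of the 4 genes was 9.06 ± 0.717 in KPF and 10.9 ± 1.92 in WPF (exact p = 0.2), a difference within the spread of the WPF libraries.

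**Figure D2:**
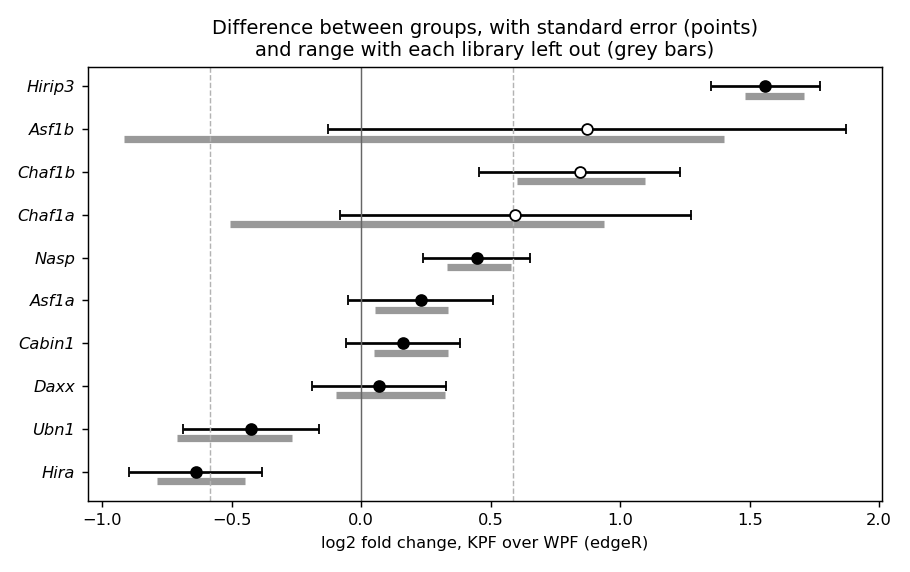
Log2 fold change of each gene, KPF over WPF, with its standard error from edgeR (circles; open for the 3 genes below the FPKM minimum) and, as grey bars, the range when each library is left out; dashed lines mark 1.5-fold. Hirip3 stands alone at the right at 1.56, the grey bars of Asf1b and Chaf1a cross 0, and those of Ubn1 and Hira stay on the negative side.

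Nasp and Daxx, the other tested members, stayed under the threshold. Nasp (ENSMUSG00000028693) was counted at 35.7, 26.6 and 30.5 CPM in KPF and 26.8, 20.5 and 20.9 CPM in WPF. KPF replicate 2 and WPF replicate 2 were almost level and the other KPF libraries were above all WPF libraries. The log2 fold change was 0.45 (standard error 0.21, edgeR p = 0.0663, adjusted p = 0.482; exact p = 0.2) and stayed between 0.33 and 0.58 without any 1 library. Daxx (ENSMUSG00000002307) was counted at 17.7, 14.3 and 14.9 CPM in KPF and 13.6, 11.2 and 19.8 CPM in WPF. The WPF libraries enclosed the KPF libraries, and the log2 fold change of 0.07 (standard error 0.26, edgeR p = 0.795, adjusted p = 0.934; exact p = 0.8) changed sign with the scaling, to -0.08 under library totals. Its partner Atrx, named here for that role after its values were seen, had a log2 fold change of -0.25 (standard error 0.31, edgeR adjusted p = 0.783).

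Nasp and Hira were also set against each other within a library, a ratio picked after its values were seen. It joins a member with a positive log2 fold change to the one called lower. The ratio therefore restates the values given above and carries no test. The FPKM of Nasp was 3.03, 2.97 and 3.05 times that of Hira in KPF replicates 1, 2 and 3, and 1.34, 1.64 and 1.35 times in WPF replicates 2, 3 and 4. The means were 3.01 ± 0.0438 and 1.44 ± 0.173 (SD, n = 3 each). The FPKM of Hirip3 was 5.43, 6.17 and 6.51 times that of Hira in KPF and 1.25, 1.48 and 1.23 times in WPF. Hirip3 took 28.5% of the summed FPKM of the 10 genes in KPF and 12.6% in WPF on average, values that follow from the choice of Hirip3.

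Per length of exon, Hirip3 was in the middle of the set in WPF and at its head in KPF. The order of the mean FPKM in WPF was Daxx (4.97), Ubn1 (3.43), Cabin1 (3.21), Nasp (3.09), Hirip3 (2.83), Hira (2.17), Asf1a (2.09), Chaf1b (0.753), Asf1b (0.200) and Chaf1a (0.167). Of these neighbours in order, only Hirip3 and Hira, Asf1a and Chaf1b, and Chaf1b and Asf1b had FPKM ranges that did not overlap. In KPF the order was Hirip3 (7.72), Daxx (4.70), Nasp (3.89), Cabin1 (3.23), Ubn1 (2.28), Asf1a (2.27), Hira (1.29), Chaf1b (1.22), Asf1b (0.327) and Chaf1a (0.220). Hirip3 and Daxx, Asf1a and Hira, and Chaf1b and Asf1b were the neighbours without overlap there. The range of Hira thus overlapped that of Asf1a in WPF, and in KPF it lay below Asf1a and overlapped that of Chaf1b.

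**Figure D3:**
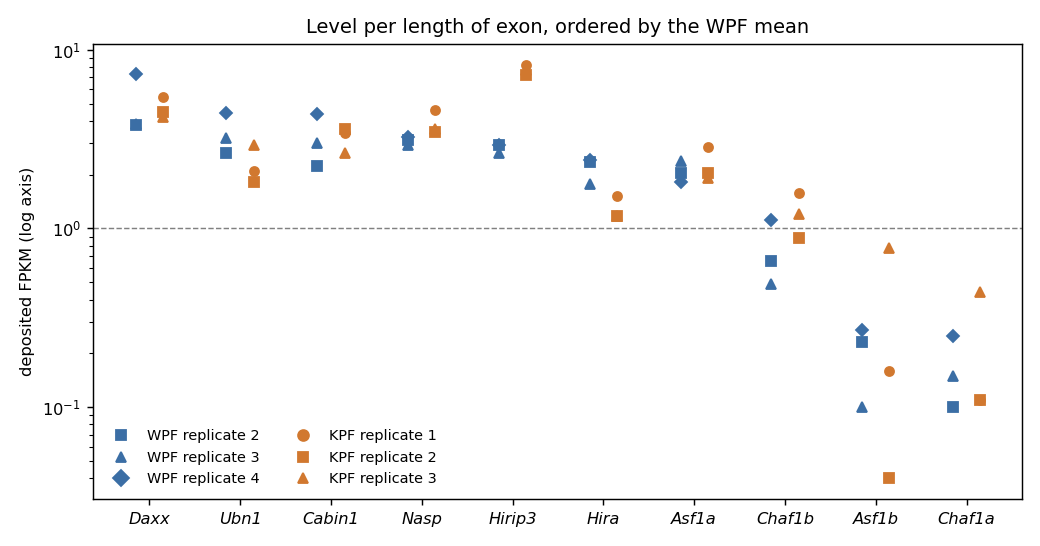
Deposited FPKM of the 10 genes in each library on a log axis, ordered by the WPF mean, WPF in blue and KPF in orange; the dashed line is the minimum mean FPKM of 1 set for the test. The Hirip3 points of KPF, 7.22 to 8.25, lie above its WPF points, 2.64 to 2.94, and Asf1b and Chaf1a lie below the line in every library.

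The chaperones coupled to DNA replication, Asf1b, Chaf1a and Chaf1b, were the 3 members below the FPKM minimum (mean FPKM 0.263, 0.193 and 0.987). Their values come from a fit that also held the tested genes, without an adjusted p. Asf1b (ENSMUSG00000005470) had 4, 1 and 21 reads in KPF and 7, 3 and 9 reads in WPF. Chaf1a (ENSMUSG00000002835) had 10, 11 and 45 reads in KPF and 11, 18 and 32 reads in WPF. In both genes KPF replicate 3 was the highest library and the other two KPF libraries lay within or below the range of the WPF libraries. The log2 fold changes were 0.87 for Asf1b (standard error 1.00, edgeR p = 0.410; exact p = 1.0) and 0.59 for Chaf1a (standard error 0.68, edgeR p = 0.408; exact p = 0.8), and without KPF replicate 3 they turned to -0.92 and -0.51. Chaf1a shares 5245 bases with Ubxn6 on the other strand, a gene with 7 to 20 reads a library, and without the strand setting reads of the pair may not be told apart. Chaf1b (ENSMUSG00000022945) had 79, 47 and 65 reads in KPF and 40, 30 and 75 in WPF, or 7.63, 4.21 and 6.33 CPM against 3.50, 2.14 and 4.45 CPM. Only KPF replicate 2 and WPF replicate 4 overlapped, and the log2 fold change was 0.84 (standard error 0.39, edgeR p = 0.0626; exact p = 0.2), which passed the call rule without KPF replicate 2 (1.04, edgeR p = 0.0320) or without WPF replicate 4 (1.09, edgeR p = 0.0391).

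Genes of replication and mitosis were read beside these chaperones. Of 19 listed, 14 were tested, 4 were called higher and none lower, and the median log2 fold change of the 14 was 1.06, with 13 positive. Over all tested genes, 5.83% were called higher and 7.55% had every KPF library above every WPF library. The called genes were Mcm3 and Mcm7, subunits of the replicative helicase, Ccne2, a cyclin of S-phase entry, and E2f1, a transcription factor of that step. Mcm7 was counted at 33.5, 19.2 and 28.5 CPM in KPF and 15.1, 17.9 and 16.6 CPM in WPF, each KPF library above each WPF library (log2 fold change 0.71, edgeR adjusted p = 0.430). Ccne2 had a log2 fold change of 1.08 without overlap (edgeR adjusted p = 0.430), and Mcm3 (1.14, adjusted p = 0.456) and E2f1 (1.24, adjusted p = 0.450) overlapped between the groups. KPF replicate 3 stood apart: Mki67, the Ki-67 mark of cycling cells, was 8.88, 9.50 and 184 CPM in KPF and 11.3, 28.5 and 51.5 CPM in WPF. The summed CPM of the 19 genes was 120, 85.0 and 481 in KPF and 72.3, 89.6 and 161 in WPF. Without KPF replicate 3 the median fell to 0.18, with Ccne2 and Mcm7 called higher and Mki67 and Rrm2 lower. The list held no call without KPF replicate 1, 1 without WPF replicate 2 or without WPF replicate 3, 5 without WPF replicate 4 and 7 without KPF replicate 2. Under library totals Ccne2 was its only call.

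**Figure D4:**
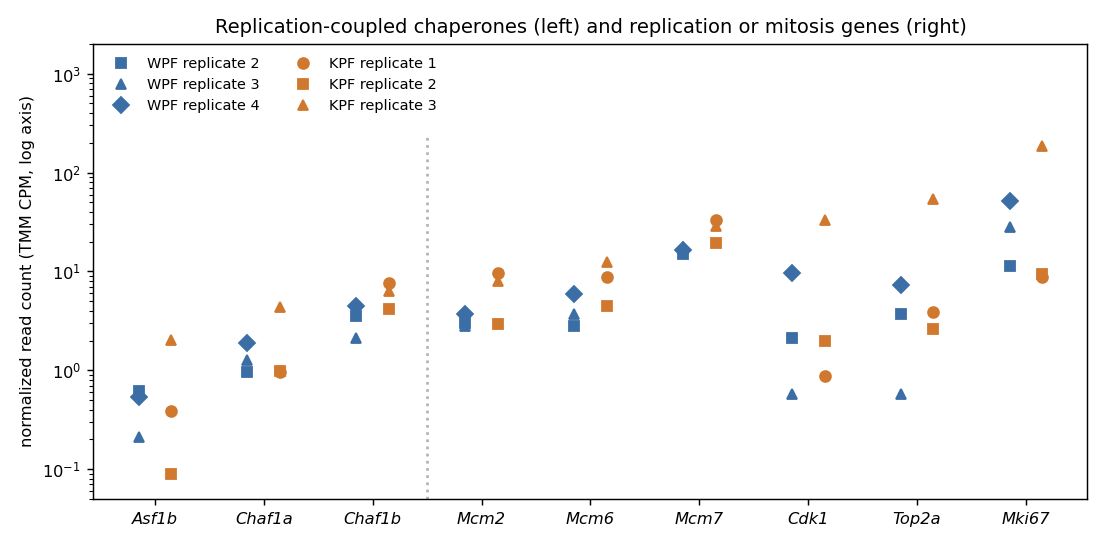
Normalized read counts (TMM CPM, log axis) of the 3 chaperones coupled to replication, left of the dotted line, and of 6 genes of the replication and mitosis list in each library, WPF in blue and KPF in orange. KPF replicate 3 (orange triangles) is the highest library for Asf1b, Chaf1a, Mcm6, Cdk1, Top2a and Mki67, where Mki67 reaches 184, and the other two KPF libraries lie below the WPF libraries for Mki67. KPF replicate 1 (orange circles) is the highest for Chaf1b, Mcm2 and Mcm7. The 6 genes were not taken by the call rule, and Mcm7 is the only called gene among them. The called Ccne2 and E2f1, also highest in KPF replicate 1, and Mcm3 are not shown.

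Of the other chaperones of H3 and H4, 13 of 17 listed were tested, with a median log2 fold change of 0.04. In these 13, 1 was called higher and none lower, beside 9.81% of all tested genes called in either direction. The call was Ubn2, a second ubinuclein that can take the place of UBN1, at 124, 82.9 and 61.3 CPM in KPF and 54.5, 62.9 and 47.3 CPM in WPF. KPF replicate 3 lay below WPF replicate 3 and the log2 fold change was 0.71 (standard error 0.30, edgeR adjusted p = 0.457). Ubn2 was not called under library totals, by limma on log2(FPKM + 1) or log2(FPKM + 0.1), or with the replicate number as a block. It was also not called under the filterByExpr filter of edgeR, or when any of the libraries except KPF replicate 3 was left out. Mcm2, a helicase subunit that also binds H3 and H4, is in this list and in the replication list.

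Among chaperones of H2A and H2B and the machines that exchange H2A.Z, the functional kin of HIRIP3, 17 of 18 listed genes were tested. In these 17, 1 was called higher and 1 lower, with a median log2 fold change of 0.15. Over all tested genes, 9.81% were called in either direction. Every KPF library lay above every WPF library in 7.55% of them and below in 8.15%. Ruvbl2, an ATPase of the INO80 and SRCAP complexes, was 16.5, 17.3 and 13.4 CPM in KPF and 9.55, 10.7 and 8.01 CPM in WPF, without overlap (log2 fold change 0.74, standard error 0.22, edgeR adjusted p = 0.430), and it kept its call without any 1 library but lost it by both limma fits and with the replicate block. Actr6, an actin-related subunit of SRCAP, was 2.61, 4.57 and 7.11 CPM in KPF and 7.79, 8.62 and 10.7 CPM in WPF, also without overlap (log2 fold change -0.92, standard error 0.39, edgeR adjusted p = 0.456). Among the fits that left out 1 library, Actr6 was called only without KPF replicate 3, and it lost its call with the block.

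Of the replacement histones, the cargo of these chaperones, 10 of 11 listed were tested, with a median log2 fold change of -0.18. In these 10, 1 was called higher and none lower, beside 9.81% of all tested genes called in either direction. H2afx, the gene of H2A.X, was 17.0, 13.8 and 31.8 CPM in KPF and 13.4, 11.6 and 9.97 CPM in WPF (log2 fold change 0.84, standard error 0.34, edgeR adjusted p = 0.447). KPF replicate 3 was the highest library. H2afx lost its call without that library, without any 1 of the WPF libraries, under library totals, by both limma fits and with the block. Both genes of H3.3, named here after their values were seen because H3.3 is the cargo of HIRA, did not pass the test. H3f3a was 23.9, 24.0 and 35.2 CPM in KPF and 33.9, 37.9 and 35.1 CPM in WPF (log2 fold change -0.36, standard error 0.22, edgeR adjusted p = 0.575). H3f3b was 56.8, 54.5 and 76.3 CPM in KPF and 74.7, 72.4 and 72.3 CPM in WPF (log2 fold change -0.23, standard error 0.22, edgeR adjusted p = 0.723). In both genes KPF replicates 1 and 2 were below all WPF libraries and KPF replicate 3 was not.

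Hirip3 lies in a tight row of genes on chromosome 7, and none of the 3 nearest tested genes on either side was called. Over all tested genes, 9.81% were called in either direction, and the groups did not overlap, in either direction, in 15.7%. Ino80e, a subunit of the INO80 remodeler (chr7:126450132-126461549 on GRCm39, minus strand), overlaps the first 406 bases of Hirip3 on the other strand, so that without the strand setting some reads of the pair may not be told apart. Its values were 13.8, 11.8 and 9.64 CPM in KPF and 8.76, 9.61 and 7.36 CPM in WPF, each KPF library above each WPF library by a margin that was close to 0 between KPF replicate 3 and WPF replicate 3. The log2 fold change of Ino80e was 0.46 (standard error 0.24, edgeR adjusted p = 0.525). The FPKM of Hirip3 was 4.71, 4.75 and 6.86 times that of Ino80e in KPF and 2.89, 1.96 and 2.63 times in WPF. On the same side, Aldoa had a log2 fold change of 0.94 (standard error 0.78), for which KPF replicate 2 alone was high at 675 CPM, and Ppp4c one of -0.16 (standard error 0.18). On the other side, Taok2 had a log2 fold change of 0.32 (standard error 0.25) and Tmem219 one of -0.44 (standard error 0.27), with every KPF library below every WPF library for Tmem219. Gm23445, with 0 to 5 reads a library, is too low to compare.

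**Figure D5:**
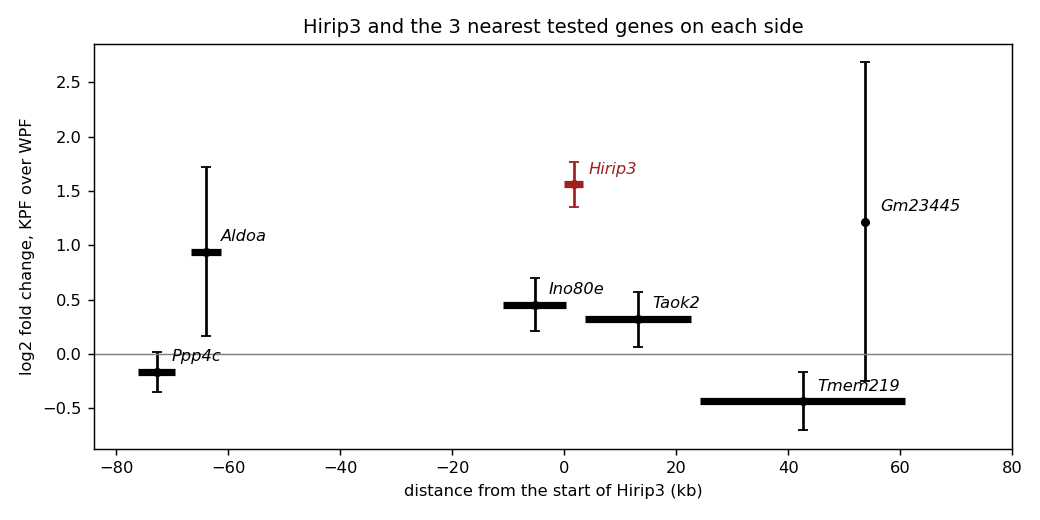
Log2 fold change, KPF over WPF, with its standard error (vertical bars, edgeR) of Hirip3 (red) and the 3 nearest tested genes on each side, against the distance from the start of Hirip3 in kilobases; horizontal bars span each gene. Hirip3 at 1.56 lies above Ino80e at 0.46 and Taok2 at 0.32 next to it, and Aldoa and Gm23445 carry wide errors.

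The 5 tested genes whose pattern over the 6 libraries was most like that of Hirip3, by the root mean square difference of log2 CPM after each gene's own mean was taken off, were Rps6-ps3 (0.136), Mug1 (0.145), 2810414N06Rik (0.211), Cnbd2 (0.218) and Gm49041 (0.236). None is a chaperone gene of the lists. Mug1, a murinoglobulin that inhibits proteases in plasma, was 854, 619 and 701 CPM in KPF and 243, 212 and 234 CPM in WPF, and Cnbd2 was 15.4, 16.5 and 13.3 CPM against 6.57, 4.41 and 6.17 CPM. Rps6-ps3 is a pseudogene and Mug1 belongs to a family of similar genes, so reads of near-identical copies make both uncertain. Rps6-ps3, 2810414N06Rik and Gm49041 were low, at 0.641 to 2.90, 1.01 to 3.31 and 0.214 to 1.08 CPM over the libraries. Hirip3 was picked as higher in KPF, so genes matched to its pattern are higher in KPF by that choice.

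Markers of liver cell types were read beside these values. None of 8 hepatocyte markers was called. Their summed CPM was 89960 to 114068 in KPF and 114905 to 190033 in WPF, each KPF library below each WPF library. Most of each sum was Alb, at 65832 to 91390 CPM in KPF and 90628 to 150690 CPM in WPF. Alb overlapped between the groups, and the sums of KPF replicate 3 and WPF replicate 4 were almost level. The log2 fold changes of the 8 markers were positive in 2 and negative in 6. Of 6 stellate cell markers, Reln, Des, Col1a1 and Col3a1 were called higher in KPF, beside 5.83% of all tested genes. Lrat and Dcn were not called, with log2 fold changes of -0.35 and 0.80. The summed CPM of the 6 was 152 to 657 in KPF and 92.2 to 113 in WPF. Des made up 493 of the 657 CPM of KPF replicate 2 and was 10.2 CPM in KPF replicate 3, within the WPF range of 7.42 to 10.6 CPM. Reln lost its call under library totals, by both limma fits, with the replicate block and without KPF replicate 1, WPF replicate 2 or WPF replicate 4, and Des by both limma fits and with the block. Of 6 endothelial markers only Pecam1 was called higher (sums 87.3 to 100 CPM and 81.4 to 101 CPM). Their log2 fold changes were positive in 4 and negative in 2. Stab2 (-0.41) was not called but had every KPF library below every WPF library, as in 8.15% of all tested genes. No Kupffer cell, lymphocyte or erythroid precursor marker was called, with sums of 115 to 173, 14.7 to 25.2 and 113 to 380 CPM in KPF and 128 to 226, 9.20 to 18.3 and 91.5 to 273 CPM in WPF. Only 2 of the 6 lymphocyte markers were tested. Every KPF library also lay below every WPF library for the uncalled Trf (-0.58), Cd5l (-0.76) and Tfrc (-0.51). For Cd3g (1.46), which was below the FPKM minimum, every KPF library lay above every WPF library. No marker of these lists was at 0 in every library. The part of these cells, and of the larger mitochondrial share in KPF, in the values of Hirip3 and Hira was not tested, and in whole liver a change in the number of cells of a type and a change in the RNA per cell cannot be told apart.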

How the data were processed

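RNA of whole liver was sequenced by the authors after poly(A) selection and random priming. The table the authors deposited holds reads per gene as raw counts, with FPKM beside them, and per the labels the submitters' processing notes name cutadapt 1.9.1, HISAT2 2.2.1, HTSeq 0.6.1, DESeq2 and GRCm39. Their roles and the strand setting are not given in the sources used here. The deposited FPKM equal the count divided by the given length and library total in 100% of values (tolerance 0.0051). Symbols were taken from GENCODE M21 (52073 of 56691 gene IDs matched), and no coordinate was carried between builds. Groups came from the sample titles, and no label says more of how the dams were replicated, so p values measure the spread between these libraries.

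Counts were fitted with edgeR 4.0.16 (R 4.3.3, TMM factors 0.888 to 1.18) over the 10866 genes whose mean FPKM was 1 or more, without covariates. Listed genes below the minimum were fitted together with them. The standard errors printed are the absolute log2 fold change divided by the square root of the F statistic of edgeR. That of Hirip3 is part of its description and is not read as a test. Exact permutation tests (SciPy 1.17.1) were two-sided over the 20 splits of 6 libraries. No pair of libraries of a group agreed within sampling noise (chi-square per gene 48.1 or more). All members were named, with every called gene of the lists, the 3 nearest tested neighbours of Hirip3 on each side and the 5 most similar genes. The tests were tried on simulated counts. The alternatives were DESeq2 1.42.0 and its size factors, library totals, limma 3.58.1 on log2(FPKM + 1) and log2(FPKM + 0.1), other filters, the replicate number as a block, and leaving out each library. The share of Hira was not planned, and leaving out libraries for it was added after the data were seen. The members and the gene lists were chosen with earlier results of these data known.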

Additional observations from a re-analysis of the deposited data

How the results depend on the processing

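Hira had a negative log2 fold change under every alternative that gave a value. In the fits that left out a library, that sign follows from groups that do not overlap. The calls depended on scale and filter. The numbers of genes called higher (634) and lower (432) became 371 and 716 when scaled by library totals, 257 and 681 by limma on log2(FPKM + 0.1), 1576 and 910 without a filter, and 255 and 205 with a mean FPKM of at least 5; limma on log2(FPKM + 1) called 238 higher. Of all called genes 59.5% were higher under TMM, 34.1% under library totals, 30.1% under limma on log2(FPKM + 1) and 27.4% under limma on log2(FPKM + 0.1). Library totals moved the median log2 fold change of all genes from 0.02 to -0.12. At an adjusted p under 0.05, DESeq2 called 156 genes, the fit without a filter 286 and limma on log2(FPKM + 0.1) 1. The count of members called, 2 with Hirip3 included by its choice, was 1 by limma on log2(FPKM + 1) and with the replicate block, where Hira lost its call, and 1 at the FPKM minimum of 5, which Hira did not reach and Hirip3 reached through its KPF values. Nothing is read from the Hirip3 calls. The 8 calls in the other lists became 3 under library totals, 1 and 2 by limma at the pseudocounts 1 and 0.1, 4 with the replicate block, 13 without a filter and 1 at the FPKM minimum of 5.

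The log2 fold change of Hirip3 was 1.18 with limma on log2(FPKM + 1). That of Hira lost its call there (-0.47, under 1.5-fold) and with the replicate block (-0.74). Asf1a turned to -0.11 with the block, and Daxx to -0.082 with library totals, -0.023 and -0.019 with limma at the pseudocounts 1 and 0.1, -0.027 without KPF replicate 1 and -0.097 without WPF replicate 3. Asf1b and Chaf1a turned to -0.92 and -0.51 without KPF replicate 3. The cause was not tested in any of these. The numbers 2 and 3 occur in both groups, and no label says what a number stands for. Deviations from the group mean correlated at 0.0865 and -0.052 between libraries that shared a number. Between libraries with different numbers the correlations were -0.0625 and -0.201. With 3 libraries a group, these values cannot decide whether a number marks a pair or a batch.

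With each library left out, 324 to 910 genes were called higher and 246 to 709 lower, 0 to 5 reached an adjusted p under 0.05, 1 to 2 members were called (Hirip3 included), and the other lists held 2 to 9 calls. The log2 fold changes ranged from 1.48 to 1.71 for Hirip3, -0.79 to -0.45 for Hira, -0.71 to -0.27 for Ubn1, 0.05 to 0.33 for Cabin1, 0.05 to 0.34 for Asf1a, -0.92 to 1.40 for Asf1b, -0.51 to 0.94 for Chaf1a, 0.60 to 1.09 for Chaf1b, 0.33 to 0.58 for Nasp and -0.10 to 0.33 for Daxx. Asf1b and Chaf1a rest on 1 to 45 reads a library, with KPF replicate 3 the highest for both.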
